A study of Homo sapiens with 6 samples.

Results

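The mitochondrial genome of human cells was examined through the 15 genes that the deposited table places on chromosome MT, out of 50868 genes in all. The rule for membership was the chromosome alone and used no measured value. They comprised 13 protein-coding genes and 2 ribosomal RNA genes. No transfer RNA gene had a row in the table, so the 22 transfer RNA genes that GENCODE 29 places on this chromosome were not analysed here.

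RNA sequencing was performed on Huh7 cells, an established human hepatoma line. In 3 libraries the cells had received a plasmid that overexpresses hsa_circ_0098181, a circular RNA of the SOX5 gene, and in 3 libraries a control plasmid. The plasmids were delivered with a lipid reagent and total RNA was taken 48 h later from both groups. No source states that the libraries came from separate cultures, so p-values measure only the spread between these libraries, which may be technical. The cells are 1 established line under transient transfection, and the share of cells that took up the plasmid is not given in the sources used here.

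The libraries held between 11130902 and 14138262 gene counts. SOX5 lay between 1905 and 2396 CPM (counts scaled to a common library size) after overexpression and between 31.3 and 41.8 CPM in the controls, a log2 fold change of 5.88 ± 0.16 (SE, n = 3 per group) with an adjusted p of 2.6e-06 in the edgeR quasi-likelihood test, so the libraries followed their labels. All 13 hepatocyte markers listed were above 1 CPM on average, and their summed level ran from 35938 to 38327 CPM after overexpression and from 34154 to 40264 CPM in the controls. The 12 markers of leukocytes, endothelium, fibroblasts and bile duct cells summed to between 202 and 218 CPM after overexpression and between 186 and 222 CPM in the controls. Of these 12 markers 5 were under 1 CPM on average, and CD3E, VWF and KRT7 were at 0 in most libraries. KRT19, at 102 to 149 CPM, and PECAM1, at 46.7 to 57.5 CPM, held most of the sum. Control replicate 1 stood apart from the other controls, with 19.1 and 20.9 chi-square units per degree of freedom over genes against them, while the other pairs within a group gave 10.1 to 13.6. The member values that it moves most are given with and without it.

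Mitochondrial DNA is a small circle that encodes the core membrane subunits of the respiratory chain and of ATP synthase, together with the ribosomal and transfer RNAs used to translate them inside the organelle. Each strand is copied into a long polycistronic precursor by the mitochondrial RNA polymerase POLRMT. Transfer RNA genes lie between most of the other genes and are cut out of the precursor, which frees the messenger and ribosomal RNAs. The subunits then join partners that are encoded in the nucleus and imported. Hepatocytes are rich in mitochondria, and hepatoma cells keep a respiratory chain while relying heavily on glycolysis.

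The genes are packed end to end, and this packing limits how reads can be assigned. All 15 had the same start and end in the table as in GENCODE 29 (GRCh38), and each is a single unspliced exon. The plus strand of the reference carried 14 of them. MT-ND6, at chrM:14149-14673, was the exception on the minus strand. The 3′ end of 8 genes, 6 of them protein-coding, touched a transfer RNA gene on the same strand with no base between.

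Those 6 protein-coding genes have no complete stop codon in the DNA. The ends are shown because they are the points where the precursor is cut and where the added poly(A) tail completes the stop codon. The lines give the last 15 bases of each gene on the plus strand of GRCh38, with the bases left over after the last full codon in capitals.
MT-ND1, chrM:4248-4262: tccccctcaaaccTA
MT-ND2, chrM:5497-5511: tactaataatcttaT
MT-CO3, chrM:9976-9990: attgatgagggtctT
MT-ND3, chrM:10390-10404: tagactgaaccgaaT
MT-ND4, chrM:12123-12137: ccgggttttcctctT
MT-CYB, chrM:15873-15887: tactcaaatgggccT
The leftover was TA in MT-ND1 and a single T in the other 5 genes.

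MT-ATP8 and MT-ATP6 share 46 bases, and MT-ND4L and MT-ND4 share 7 bases in another reading frame. MT-ATP6 and MT-CO3 share their last and first base. The first stretch shows the whole overlap of the ATP synthase pair, with the start codon of MT-ATP6 and the stop codon of MT-ATP8 in capitals. The second shows the overlap of the complex I pair in capitals with its flanking bases.
MT-ATP8 and MT-ATP6, chrM:8527-8572: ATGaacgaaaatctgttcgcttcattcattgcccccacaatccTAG
MT-ND4L and MT-ND4, chrM:10750-10776: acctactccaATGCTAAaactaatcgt
How the authors counted a read that covers such an overlap is not given in the sources used here, so the separate levels of these genes are uncertain.

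The level per length was read from the deposited FPKM values, which for these genes equalled the count divided by the library total and the gene length. MT-CO1, the catalytic core of cytochrome c oxidase (complex IV), had the highest mean level, at 13532 FPKM over the 6 libraries. Its level was 13730, 12189 and 11823 FPKM after overexpression and 17734, 12926 and 12792 FPKM in the controls. The groups overlapped, and control replicate 1 was the highest of the 6.

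MT-ND4L followed with a mean of 9608 FPKM, then MT-ATP8 with 9278, MT-CO2 with 9172, MT-ND4 with 8251 and MT-CO3 with 7568 FPKM. Over single libraries MT-ND4L spanned 7934 to 14697 FPKM, MT-ATP8 8185 to 11949 FPKM, MT-CO2 8291 to 10537 FPKM, MT-ND4 7190 to 11339 FPKM and MT-CO3 6992 to 8405 FPKM. These ranges overlap one another, but the genes were measured in the same libraries. Within every library MT-ATP8 exceeded MT-ND4 and MT-CO3, and MT-CO2 exceeded MT-CO3. The order of the other pairs among these genes changed from library to library. A middle group was formed by MT-ND5 (3674 FPKM), MT-CYB (3554 FPKM), MT-RNR2 (3044 FPKM) and MT-ND2 (2854 FPKM), whose ranges over libraries also overlapped. Below them came MT-ND1 with 1885 FPKM, MT-ATP6 with 1082 FPKM and MT-ND3 with 1018 FPKM.

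The ribosomal RNA of the small subunit, MT-RNR1, had a mean level of only 582 FPKM. Library construction is described only as a standard Illumina protocol, and whether ribosomal RNA was depleted or polyadenylated RNA selected is not given in the sources used here. The ratio of the large-subunit RNA to the small-subunit RNA, in counts per base, was 4.63, 5.25 and 4.94 after overexpression and 5.92, 5.11 and 5.47 in the controls. The groups overlapped (two-sided exact permutation p = 0.2).

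MT-ND6, a membrane subunit of complex I, was the lowest of the 15 at 207 FPKM. Its level was 165, 169 and 278 FPKM after overexpression and 247, 173 and 210 FPKM in the controls. It is also the gene with the opposite base composition, with 35.6% G and 7.05% C on its coding strand, where the other members had 6.28% to 19.0% G. The strand setting of the counting is not stated, and without strand the reads of MT-ND6 and of antisense RNA from the opposite strand cannot be told apart.

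**Figure D1:**
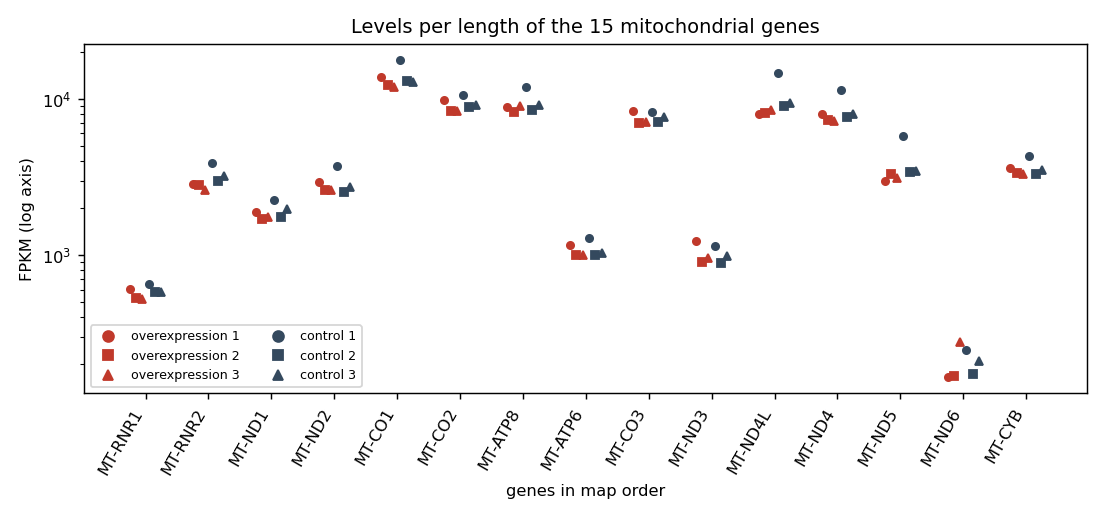
Level per length (FPKM, log axis) of the 15 mitochondrial genes in map order, with each point a library (circle, square and triangle for replicates 1, 2 and 3; red for overexpression and dark blue for control). MT-CO1 had the highest mean (13532 FPKM) and MT-ND6 the lowest (207 FPKM), and control replicate 1 lay above the other controls for every gene.

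The share of the library taken by mitochondrial RNA addresses whether the circular RNA altered the mitochondrial transcriptome as a whole. All 15 genes together held 7.04%, 6.42% and 6.32% of the library counts after overexpression and 9.29%, 6.71% and 6.94% in the controls. The means were 6.59% ± 0.392 and 7.65% ± 1.43 (SD, n = 3), a log2 difference of -0.20 with a two-sided exact permutation p of 0.3. The groups overlapped, since overexpression replicate 1 exceeded control replicates 2 and 3. Without control replicate 1 the log2 difference was -0.051 (exact permutation p = 0.5). With 3 against 3 libraries the smallest p this test can give is 0.1. Fewer mitochondria per cell and less RNA per mitochondrion cannot be told apart in bulk RNA.

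The protein-coding genes made up nearly all of this signal. Their share was 6.54%, 5.93% and 5.87% after overexpression against 8.63%, 6.19% and 6.38% in the controls. The log2 difference was -0.19 (exact permutation p = 0.3), and without control replicate 1 it was -0.042.

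The 2 ribosomal RNA genes held 0.4998%, 0.485% and 0.456% of the counts after overexpression and 0.665%, 0.519% and 0.555% in the controls. Each overexpression library lay below each control library, and the means were 0.480% ± 0.0223 and 0.580% ± 0.0759 (SD, n = 3). The log2 difference was -0.26, with an exact permutation p of 0.1, the smallest possible in this design. Without control replicate 1 it was -0.16, again with no overlap, and the smallest p that 3 against 2 libraries can give is also 0.1. As a share of the mitochondrial counts alone, ribosomal RNA was 7.10%, 7.57% and 7.21% after overexpression against 7.15%, 7.74% and 7.99% in the controls (exact permutation p = 0.3).

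By strand, the 14 plus-strand genes followed the total, with a log2 difference of -0.20 (exact permutation p = 0.3). MT-ND6, the lone minus-strand gene, held 0.00867%, 0.00889% and 0.0146% of the library counts after overexpression and 0.0130%, 0.00910% and 0.0110% in the controls. Here overexpression replicate 3 was the highest library and overexpression replicate 1 the lowest. The log2 difference was -0.069 (exact permutation p = 0.8), and without control replicate 1 it was 0.056. Relative to all mitochondrial counts MT-ND6 was at 0.123%, 0.139% and 0.231% after overexpression and at 0.140%, 0.136% and 0.159% in the controls (exact permutation p = 0.9).

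**Figure D2:**
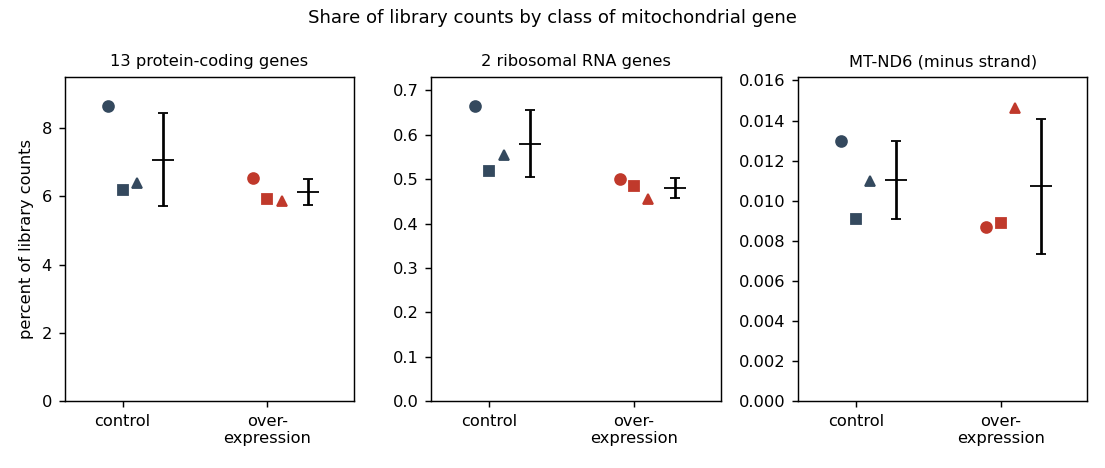
Percent of library counts held by the 13 protein-coding genes, the 2 ribosomal RNA genes and MT-ND6 in each library (circle, square and triangle for replicates 1, 2 and 3), with the group mean and SD (n = 3) as a bar beside the points. The ribosomal RNA shares of the overexpression libraries (0.456% to 0.4998%) lay below those of the controls (0.519% to 0.665%), while the groups overlapped for the protein-coding genes and MT-ND6.

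Gene by gene, all 15 members passed the filter on low counts, and none passed an adjusted p of 0.05 in edgeR, in DESeq2 or in limma. Over the 15055 genes tested 0.0399% passed in edgeR. The lowest adjusted p of a member was 0.797 in edgeR, 0.9996 in DESeq2 and 0.735 in limma. Without adjustment 2 of the 15 were lower at p under 0.05 in edgeR, where 3.08% of all genes tested were lower by that rule. The count was 3 in DESeq2 and 0 in limma. Those were fitted on 27086 and 11746 genes, and the share of all genes is not given for them. Log2 fold changes were below 0 for 14 of the 15 members (49.5% of all genes), with a median of -0.17 against 0.0023 over all genes. Without control replicate 1, 10 of the 15 were below 0 and the median was -0.040.

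The groups did not overlap for 3 members, all lower after overexpression, where 6.5% of all genes were lower with no overlap. They were MT-RNR2, MT-ND4L and MT-ND5. The members are neighbours on shared precursors and were measured in the same libraries, so they are not independent of one another.

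MT-RNR2, the 16S ribosomal RNA of the large mitochondrial subunit, was at 4418, 4299 and 4020 CPM after overexpression and at 6188, 4635 and 5013 CPM in the controls. Each overexpression library lay below each control, though overexpression replicate 1 and control replicate 2 differed little. The edgeR log2 fold change was -0.31 ± 0.12 (SE; adjusted p = 0.797), with a 95% interval from -0.59 to -0.042. Without control replicate 1 it was -0.18 (edgeR adjusted p = 0.959). MT-RNR1, the 12S ribosomal RNA of the small subunit, was at 584, 501 and 498 CPM against 640, 555 and 561 CPM, with a log2 fold change of -0.15 ± 0.10 and overlapping groups, and without control replicate 1 it was at -0.080.

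Complex I, which passes electrons from NADH to ubiquinone, takes 7 of its subunits from mitochondrial DNA, and they gave both the most negative and the only positive value of the 15. MT-ND4L was at 2359, 2388 and 2495 CPM after overexpression and at 4484, 2675 and 2803 CPM in the controls. The overexpression libraries lay close together below all controls, and control replicate 1 was far above the rest. The log2 fold change was -0.46 ± 0.19 (SE; edgeR adjusted p = 0.797) and -0.18 without control replicate 1 (adjusted p = 0.959).

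MT-ND5 showed the same order, at 5383, 5930 and 5589 CPM against 10799, 6146 and 6295 CPM. Its log2 fold change was -0.46 ± 0.21 (SE), with a 95% interval from -0.93 to 0.012. Without control replicate 1 it was -0.14. MT-ND4 was at 11060, 9906 and 9815 CPM after overexpression and at 16050, 10554 and 11113 CPM in the controls, where overexpression replicate 1 exceeded control replicate 2, and its log2 fold change was -0.29 ± 0.16, or -0.077 without control replicate 1.

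The other complex I subunits had smaller values. MT-ND1 had a log2 fold change of -0.19 ± 0.12, MT-ND2 of -0.17 ± 0.16 and MT-ND6 of -0.069 ± 0.22. These were -0.071, 0.036 and 0.080 without control replicate 1, so MT-ND2 and MT-ND6 turned direction. MT-ND3 was at 424, 311 and 327 CPM after overexpression and at 408, 306 and 344 CPM in the controls, with a log2 fold change of 0.0047 ± 0.15, or 0.12 without control replicate 1. In CPM, replicate 1 was the highest library of both groups in MT-ND3 and in every other member except MT-ND4L, MT-ND5 and MT-ND6. In percent of library counts MT-ATP8 was a further exception, at 0.184% in overexpression replicate 1 and 0.186% in overexpression replicate 3. The share of all members together had the same order, with replicate 1 at 7.04% after overexpression and at 9.29% in the controls.

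The subunits of the later complexes had log2 fold changes between -0.23 and -0.055. MT-CYB, the cytochrome b of complex III, had a log2 fold change of -0.14 ± 0.12. In complex IV, which hands electrons to oxygen, MT-CO1 was at -0.23 ± 0.15, MT-CO2 at -0.13 ± 0.12 and MT-CO3 at -0.055 ± 0.11. In ATP synthase (complex V), MT-ATP8 was at -0.21 ± 0.14 and MT-ATP6, which forms part of the proton channel, at -0.090 ± 0.13. The groups overlapped for all 6 of these genes. With control replicate 1 left out they were at -0.0066 for MT-CYB, -0.042 for MT-CO1, -0.040 for MT-CO2, 0.011 for MT-CO3, -0.035 for MT-ATP8 and 0.045 for MT-ATP6, so MT-CO3 and MT-ATP6 turned direction. Over the 15 members the 95% intervals of the fold change reached from 0.525 at the lowest (MT-ND5) to 1.35 at the highest (MT-ND6).

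**Figure D3:**
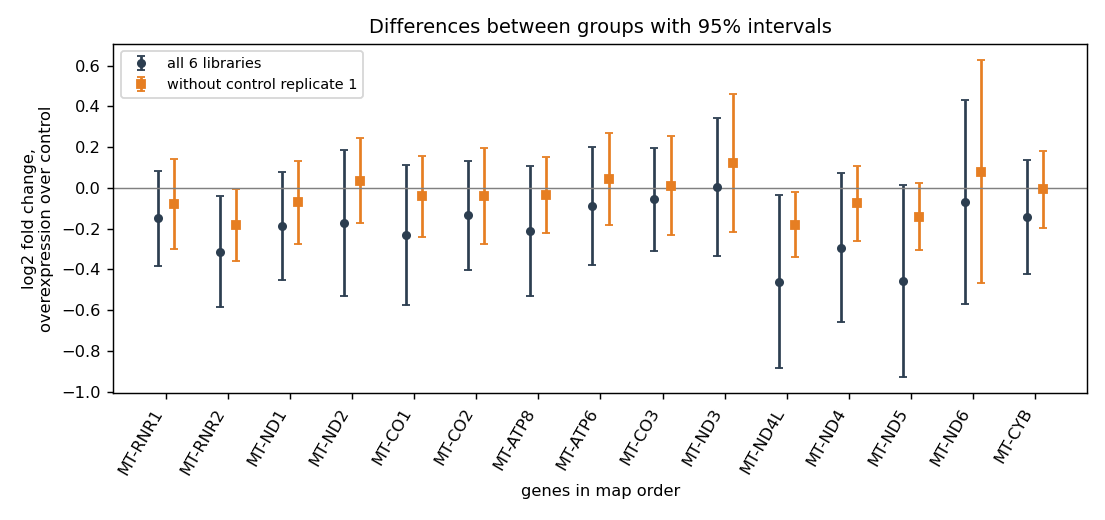
The edgeR log2 fold change of overexpression over control, with its 95% interval, for the 15 genes in map order, from all 6 libraries (dark circles) and without control replicate 1 (orange squares). With all libraries 14 of the 15 values were below 0 and the most negative were those of MT-ND4L and MT-ND5 (both -0.46), and without control replicate 1 10 were below 0.

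Control replicate 1 was above the mean of the other controls in every member, but not evenly. Its percent of library counts was 1.69 times that mean for MT-ND5, 1.597 times for MT-ND4L, 1.45 times for MT-ND4 and 1.42 times for MT-ND2. It was 1.12 times for MT-RNR1 and 1.11 times for MT-CO3. The part of this library in the group differences can be read from the values without it, and what set it apart was not tested.

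The make-up of the mitochondrial counts compares members with one another and is free of the library's total mitochondrial share. Among protein-coding counts, complex IV held 52.8%, 50.5% and 50.2% after overexpression and 47.5%, 51.1% and 50.1% in the controls. Complex I held 36.9%, 39.1% and 39.1% against 43.0%, 38.9% and 39.6%. In both cases the groups overlapped (exact permutation p = 0.4 and 0.3). Complex V held between 3.88% and 4.33% in all libraries (exact permutation p = 0.3). Complex III, which is MT-CYB alone, held 6.31%, 6.40% and 6.38% after overexpression and 5.68%, 6.05% and 6.29% in the controls, a log2 difference of 0.085 with no overlap and the smallest exact permutation p of 0.1. As a share of all mitochondrial counts MT-CYB differed by 0.090 on the log2 scale, and by 0.054 without control replicate 1.

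Of the 15 single-gene shares of mitochondrial counts, 5 did not overlap between groups, each with an exact permutation p of 0.1, the smallest possible here. In CPM over all genes tested, 12.9% did not overlap in either direction, on another scale than these shares. It is therefore no background for the count of 5, and whether that count is high cannot be read from it. MT-ND2 took 4.33%, 4.23% and 4.28% of mitochondrial counts after overexpression against 4.19%, 3.92% and 4.09%. MT-ATP6 took 1.13%, 1.06% and 1.09% against 0.939%, 1.02% and 1.01%, and MT-CYB took 5.86%, 5.92% and 5.92% against 5.27%, 5.58% and 5.79%. These 3 shares were higher after overexpression, although the edgeR log2 fold changes of the genes were -0.17, -0.090 and -0.14. Shares are parts of the same total, so a fall in some of them raises others. MT-ND4L took 3.35%, 3.76% and 3.98% against 4.70%, 3.99% and 4.02%, and MT-ND4 took 15.7%, 15.6% and 15.7% against 16.8%, 15.7% and 15.9%. Both genes of that overlapping pair had lower shares after overexpression, with log2 differences of -0.20 for MT-ND4L and -0.045 for MT-ND4. When control replicate 1 was left out they were -0.12 and -0.017, while those of MT-ND2 and MT-ATP6 were 0.096 and 0.10 against 0.075 and 0.14 with it.

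Within the overlapping pairs the per-base ratios were not even. The ratio of MT-ATP8 to MT-ATP6 was 7.62, 8.20 and 8.89 after overexpression and 9.32, 8.48 and 8.86 in the controls (exact permutation p = 0.3). MT-ND4L and MT-ND4 were nearly level, at 0.989, 1.12 and 1.18 against 1.30, 1.18 and 1.17 (exact permutation p = 0.3). The members of each pair are known to be carried on a shared bicistronic transcript.

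The low value of MT-ATP6 was accompanied by high counts at a copy of it in the nuclear genome. Pieces of mitochondrial DNA have been inserted into nuclear chromosomes. Copies were picked from the table by symbol, as rows named as pseudogenes of a member or starting with MTRNR2L. Copies of transfer RNA genes were not sought. This gave 365 rows. Of these, 293 had no count in any library and 72 had at least 1. The top 5 held 98.7% of the counts of all copies. The members shared between 0% (MT-RNR1) and 66.7% (MT-CO1) of their 31-base words with nuclear copies annotated under such symbols. For MT-ATP6 the share was 62.8%. Insertions without such a symbol were not compared, so the 0% does not show that MT-RNR1 lacks nuclear copies.

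MTATP6P1, at chr1:633696-634376, aligned to the whole 681 bases of MT-ATP6 with 98.5% identity. The 10 differences were G19A, C129T, A151C, A175G, A192G, A334G, C417T, C534A, C549T and C642T, with the base of MT-ATP6 first and positions counted from 1 at the start of the gene. A stretch with 4 of them is given here, because only reads that cover such bases can tell the gene from its copy. Both are from the plus strand of GRCh38 and the differing bases are in capitals.
MT-ATP6, chrM:8650-8723: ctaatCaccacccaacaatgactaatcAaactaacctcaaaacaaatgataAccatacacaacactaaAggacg
MTATP6P1, chr1:633819-633892: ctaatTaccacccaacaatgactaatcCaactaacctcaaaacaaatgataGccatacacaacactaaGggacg

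The copy drew 15298, 81 and 9712 counts after overexpression and 15804, 10378 and 10373 counts in the controls. MT-ATP6 itself had 11248, 9418 and 8419 counts against 9719, 8045 and 8564. All nuclear copies of MT-ATP6 together, of which MTATP6P1 was by far the largest, took 57.6%, 0.863% and 53.6% of the counts summed over gene and copies after overexpression and 61.9%, 56.3% and 54.8% in the controls. In 5 libraries the copy exceeded the gene, and in overexpression replicate 2 it was almost empty. The count of MT-ATP6 in that library was within the range of the other libraries. Scaled to library size it was the lowest, by a small margin, at 672 CPM against 680 to 897 CPM in the others.

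The log2 fold change of MTATP6P1 was -0.77 ± 1.13 (SE; edgeR adjusted p = 0.890), and it was -0.19 without overexpression replicate 2 and -0.47 without control replicate 1. How reads that match both places were assigned is not given in the sources used here, and why overexpression replicate 2 differed was not tested. Summing each member with its copies moved MT-ATP6 from a log2 fold change of -0.090 to -0.45. With its copies added, the per-base ratio of MT-ATP8 to MT-ATP6 became 3.23, 8.13 and 4.13 after overexpression and 3.55, 3.70 and 4.01 in the controls.

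Other copies drew fewer counts beside their mitochondrial gene. MTND2P28, with 98.4% identity to MT-ND2, had 6134, 5411 and 4863 counts after overexpression and 7238, 4566 and 4575 in the controls. That was 11.7% to 14.3% of the summed counts of MT-ND2 and its copies in each library. MTND4P12, with 95.7% identity to MT-ND4, had 942, 875 and 326 counts against 1081, 352 and 396. Overexpression replicates 1 and 2 and control replicate 1 were thus the high libraries. Its log2 fold change was -0.057 ± 0.50 (SE), or 0.73 without control replicate 1. MTND1P23, a partial copy of MT-ND1, had 816, 608 and 500 counts against 617, 484 and 590, and the copies took 2.38% to 3.11% of the summed counts of MT-ND1. MTCO1P12 had 175, 159 and 157 counts against 243, 133 and 200, although 62.2% of the 31-base words of MT-CO1 occur in it. The groups overlapped for all 5 copies.

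**Figure D4:**
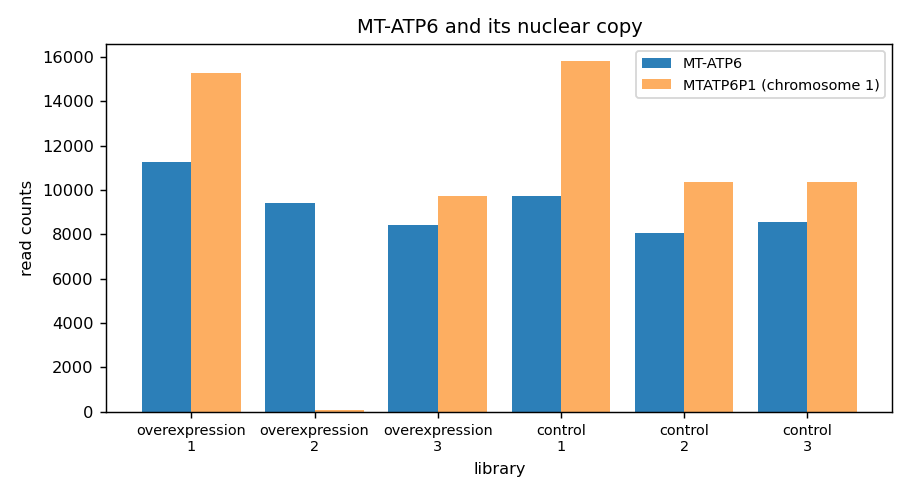
Deposited read counts of MT-ATP6 (blue) and of its nuclear copy MTATP6P1 on chromosome 1 (orange) in each library. The copy exceeded the gene in 5 libraries and had 81 counts in overexpression replicate 2, where MT-ATP6 had 9418.

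Transcription and processing of mitochondrial DNA depend on nuclear genes. Of 50 listed genes for copying, transcribing, cutting, stabilising and modifying mitochondrial nucleic acids, all were tested and none passed an adjusted p of 0.05 in edgeR. Log2 fold changes were above 0 for 32 (50.5% of all genes) and below 0 for 18 (49.5%), with a median of 0.057. Without adjustment 2 were higher (2.42% of all genes) and 1 was lower (3.08%). The groups did not overlap in 7 that were higher (6.4% of all genes) and in 1 that was lower (6.5%).

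POLRMT was at 160, 155 and 142 CPM after overexpression and at 129, 141 and 137 CPM in the controls, with no overlap and a log2 fold change of 0.17 ± 0.088 (edgeR adjusted p = 0.797). Its partners in initiation, TFAM, which also packages the DNA, and TFB2M had log2 fold changes of 0.090 and 0.079. The elongation factor TEFM was at 0.12 and the replicative helicase TWNK at 0.16. Of the enzymes that cut transfer RNAs out of the precursor, TRMT10C, a subunit of RNase P, was at 0.15 and ELAC2, which cuts the 3′ side, at 0.072.

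LRPPRC and SLIRP form a complex that stabilises mitochondrial messenger RNAs, and their log2 fold changes were 0.00084 and 0.20, the latter 0.092 without control replicate 1. GRSF1, an RNA granule protein, was at 0.21. The degradosome subunits PNPT1 and SUPV3L1 were at -0.068 and -0.013. The 3 genes past an unadjusted p of 0.05, named after their values were seen, were FASTK, of a family of mitochondrial RNA-binding proteins, at 0.25, MRM2, a methyltransferase of the 16S RNA, at 0.31, and MTERF4, a factor of mitochondrial ribosome assembly, at -0.46, each with an edgeR adjusted p of 0.797.

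Among 9 regulators of mitochondrial biogenesis, 4 had log2 fold changes above 0 (50.5% of all genes) and 5 below (49.5%). Their median was -0.016 and none passed an adjusted p of 0.05 in edgeR. PPARGC1A, the coactivator known as PGC-1α, was at -0.10, NRF1 at -0.023, GABPA at 0.027 and ESRRA at 0.076. MYC, named after its values were seen, had the largest value, 2.90 ± 1.22 (edgeR adjusted p = 0.797). It was at 2.69, 77.9 and 3.23 CPM after overexpression and at 2.77, 2.90 and 5.51 CPM in the controls, so the value rested on overexpression replicate 2, the library in which MTATP6P1 was almost empty.

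The nuclear partners of the mitochondrial subunits were read from 34 listed genes of complexes I to V. None passed an adjusted p of 0.05 in edgeR. Without adjustment 4 were higher (2.42% of all genes) and none was lower (3.08%). Log2 fold changes were above 0 for 32 of the 34 (50.5% of all genes), with a median of 0.18, where the 13 mitochondrial protein-coding genes had a median of -0.17. The groups did not overlap in 7, all higher (6.4% of all genes).

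NDUFB8 of complex I was at 64.0, 57.4 and 40.6 CPM after overexpression and at 25.01, 37.3 and 39.8 CPM in the controls (log2 fold change 0.66 ± 0.21, edgeR adjusted p = 0.797). UQCRB of complex III had a log2 fold change of 0.34 ± 0.12 and COX6C of complex IV one of 0.34 ± 0.14. The groups overlapped for UQCRB, at 131 CPM in overexpression replicate 1 and 132 CPM in control replicate 1. They did not overlap for NDUFB8 and COX6C. NDUFB8 was at 0.49, UQCRB at 0.46 and COX6C at 0.19 without control replicate 1. Control replicate 1 was the lowest library for NDUFB8 and COX6C but not for UQCRB.

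The library medians show how far control replicate 1 enters both lists. As the median deviation from each gene's mean over the libraries, on the log2 scale, the mitochondrial genes were at 0.031, -0.16 and -0.14 after overexpression and at 0.32, -0.092 and -0.0033 in the controls. The nuclear respiratory genes were at 0.15, 0.038 and 0.12 against -0.30, 0.020 and 0.023. Control replicate 1 was thus the highest library for the mitochondrial genes and the lowest for the nuclear ones. Without it the median log2 fold change was -0.040 for the mitochondrial genes, 0.073 for the nuclear respiratory genes and -0.011 for the mitochondrial DNA expression list. The mitochondrial DNA expression list spanned only -0.076 to 0.037 over the 6 libraries.

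**Figure D5:**
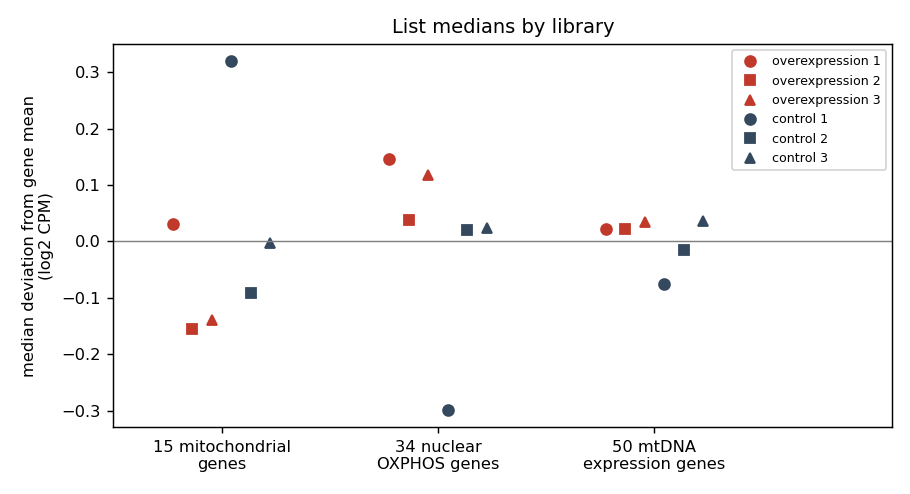
Median deviation of each library from the gene means (log2 CPM) for the 15 mitochondrial genes, 34 nuclear respiratory chain genes (OXPHOS) and 50 genes of mitochondrial DNA (mtDNA) expression; each point is a library. Control replicate 1 lay at 0.32 for the mitochondrial genes and at -0.30 for the nuclear respiratory genes.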

How the data were processed

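Total RNA of 6 Huh7 libraries was sequenced. Titles of the samples gave the group and the replicate number. Read counts per gene, as whole numbers with no normalization, and FPKM values stand side by side in the table that the authors deposited. The submitters' processing notes name TopHat2 2.0.9 and hg38. The counting tool and its strand and multiple-match settings are not given in the sources used here. No transfer RNA gene had a row, so the planned transfer RNA share was not computed. Library totals are given with the results.

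Counts were scaled by TMM and fitted with edgeR 4.0.16 (R 4.3.3), with group as the sole term, after filterByExpr had kept 15055 genes (minimum count 10). The quasi-likelihood F test was two-sided, and p-values were adjusted over these genes by the Benjamini-Hochberg method. The script was tested on simulated data. Shares were compared on the log2 scale by exact permutation tests. Alternatives were other scalings, DESeq2 1.42.0, other filters, limma 3.58.1 on log2(FPKM + 1) where 3 libraries reached 1 FPKM, a replicate block, other denominators and each library left out. Named genes were all members, SOX5, 12 genes of the mitochondrial DNA expression list and any past an adjusted p of 0.05, 4 biogenesis regulators, up to 3 nuclear respiratory genes with the largest rise and 3 with the largest fall at an unadjusted p under 0.05, and the 5 nuclear copies with most counts. Others are said to be named after their values were seen. Sequences were read from GENCODE 29 transcripts (GRCh38). The members and lists were chosen with earlier results of these data known.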

Additional observations from a re-analysis of the deposited data

How the results depend on the processing

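None of the 15 mitochondrial genes passed an adjusted p of 0.05 under any of the 17 alternatives to the edgeR fit, and 7 of them (MT-RNR1, MT-RNR2, MT-ND1, MT-CO1, MT-ND4L, MT-ND4 and MT-ND5) had a negative log2 fold change under each. Of 255 log2 fold changes of members compared with the reported ones, 16 turned direction, and of 753 single-gene values and shares in all, nuclear genes included, 51 did. The number of members lower at an unadjusted p under 0.05 was 4 with no low-count filter, 0 with limma on log2(FPKM + 1), and 0 to 5 with single libraries left out. The share of all genes under that threshold is not given for the alternative fits. Whether these counts exceed it therefore cannot be read from them. Leaving out control replicate 1 and overexpression replicate 2 together was chosen after seeing the data, as was summing members with their copies. It left 7 members below 0, against up to 15 with single libraries left out. Leaving libraries out, singly or as that pair, gave log2 fold changes from -0.29 to 0.067 for MT-ND2, -0.23 to 0.0067 for MT-CO2, -0.31 to 0.0095 for MT-ATP8, -0.17 to 0.089 for MT-ATP6, -0.15 to 0.061 for MT-CO3, -0.14 to 0.21 for MT-ND3, -0.35 to 0.20 for MT-ND6 and -0.23 to 0.014 for MT-CYB. With single libraries left out, the log2 difference of the MT-ND6 share of library counts ran from -0.31 to 0.062, and that of its share of mitochondrial counts, which is the minus-strand share, from -0.14 to 0.31. For shares of mitochondrial counts the range was -0.022 to 0.13 for MT-RNR1, -0.0082 to 0.10 for MT-ND1, -0.0087 to 0.024 for MT-CO1 and -0.023 to 0.059 for MT-ATP8. The median of the mitochondrial DNA expression list was -0.011 when control replicate 1 was left out and 0.12 when control replicate 3 was. Log2 fold changes of nuclear genes ran from -0.076 to 0.17 for TFB2M, -0.021 to 0.36 for TEFM, -0.082 to 0.34 for TWNK, -0.0089 to 0.022 for LRPPRC, -0.079 to 0.036 for SUPV3L1, -0.27 to 0.17 for PPARGC1A, -0.13 to 0.032 for NRF1, -0.021 to 0.097 for GABPA and -0.049 to 0.22 for ESRRA. Those of the copies ran from -0.38 to 0.082 for MTND2P28, -0.35 to 0.73 for MTND4P12 and -0.22 to 0.075 for MTND1P23. Other scalings turned LRPPRC (-0.0014 with RLE), SUPV3L1 (0.0029 with upper-quartile scaling, 0.011 with library totals, 0.0084 with limma) and NRF1 (0.00056 with library totals), and limma turned MTND4P12 (0.078). Apart from the values without a library, which rest on fewer samples, the cause of these turns was not tested. Over well-counted genes, deviations of same-numbered libraries from their group means correlated at -0.056, -0.014 and -0.032. These values cannot tell whether same-numbered libraries were made together, and no source states it. Replicate 1 was the highest library of both groups for most members. The fit with a replicate block called 0 members (lowest adjusted p 0.862), had 2 at an unadjusted p under 0.05 and turned MTND4P12 to 0.045. For shares, 3 same-numbered pairs cannot give a p below 0.25. The transfer RNA share was not run. What limits the report is the number of libraries, the unstated handling of strand and of reads with several matches, and control replicate 1.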
